A study of Mus musculus with 16 samples.

Results

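The urea cycle and the enzymes that take amino acids apart were followed in mouse liver as 47 genes, found by their gene symbols among the 22612 genes of the deposited expression table. They were grouped by function into 8 genes of the urea cycle and its mitochondrial carriers, 5 of transamination and glutamate, 6 of phenylalanine and tyrosine breakdown (aromatic), 7 of the kynurenine route of tryptophan, 3 of histidine breakdown, 13 of branched-chain amino acid breakdown and 5 of proline, lysine and glyoxylate metabolism. The libraries came from male C57BL/6 mice bought at 7 weeks of age and kept for 16 weeks on 1 of 4 feeding regimens after an acclimation week. Livers of the HK group (iKD in the design text) came from mice switched every 2 weeks between a high-fat diet with 58% of its energy as fat and a ketogenic diet with 90.5%. The HC group (iCD) was switched every 2 weeks between the same high-fat diet and a chow with 11% fat, the H group (HFD) stayed on the high-fat diet, and the N group (CD) stayed on chow. Each regimen was given to 6 mice and is represented by 4 libraries, 16 in all. All livers were taken after an overnight fast, and RNA with an integrity number above 8 was used. The labels do not give the diet on which the HK and HC mice ended, nor whether each library is a separate animal, so the p-values below measure the spread between these libraries.

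The liver removes amino groups by passing them through aminotransferases to glutamate and aspartate and then through the urea cycle, whose early steps lie in the mitochondrion and whose later steps lie in the cytosol. The carbon skeletons go on to glucose, ketone bodies or the citric acid cycle. In liver, urea synthesis and much of amino acid breakdown are strongest in periportal hepatocytes, and hormones of fasting, glucagon and glucocorticoids, are textbook inducers of tyrosine aminotransferase and of urea cycle enzymes.

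Levels are in TPM, transcript abundance scaled to gene length and to the library total, and all 47 genes were expressed well enough to be tested in every comparison, 1 TPM being reached in 4 or more libraries. Averaged over the 16 libraries, Hpd, which oxidises the keto acid of tyrosine, had the highest level at 2381 TPM, followed by Ass1 at 2136 TPM, Arg1 at 1408 TPM and Cps1 at 821 TPM. Acmsd, which diverts a tryptophan intermediate away from NAD synthesis, had the lowest level at 10.1 TPM, below Mccc1 at 30.9 TPM. Together the 47 genes took 1.64 ± 0.16% of all TPM in HK, 1.76 ± 0.0726% in HC, 1.50 ± 0.391% in H and 1.68 ± 0.19% in N (mean ± SD, n = 4 each).

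**Figure D1:**
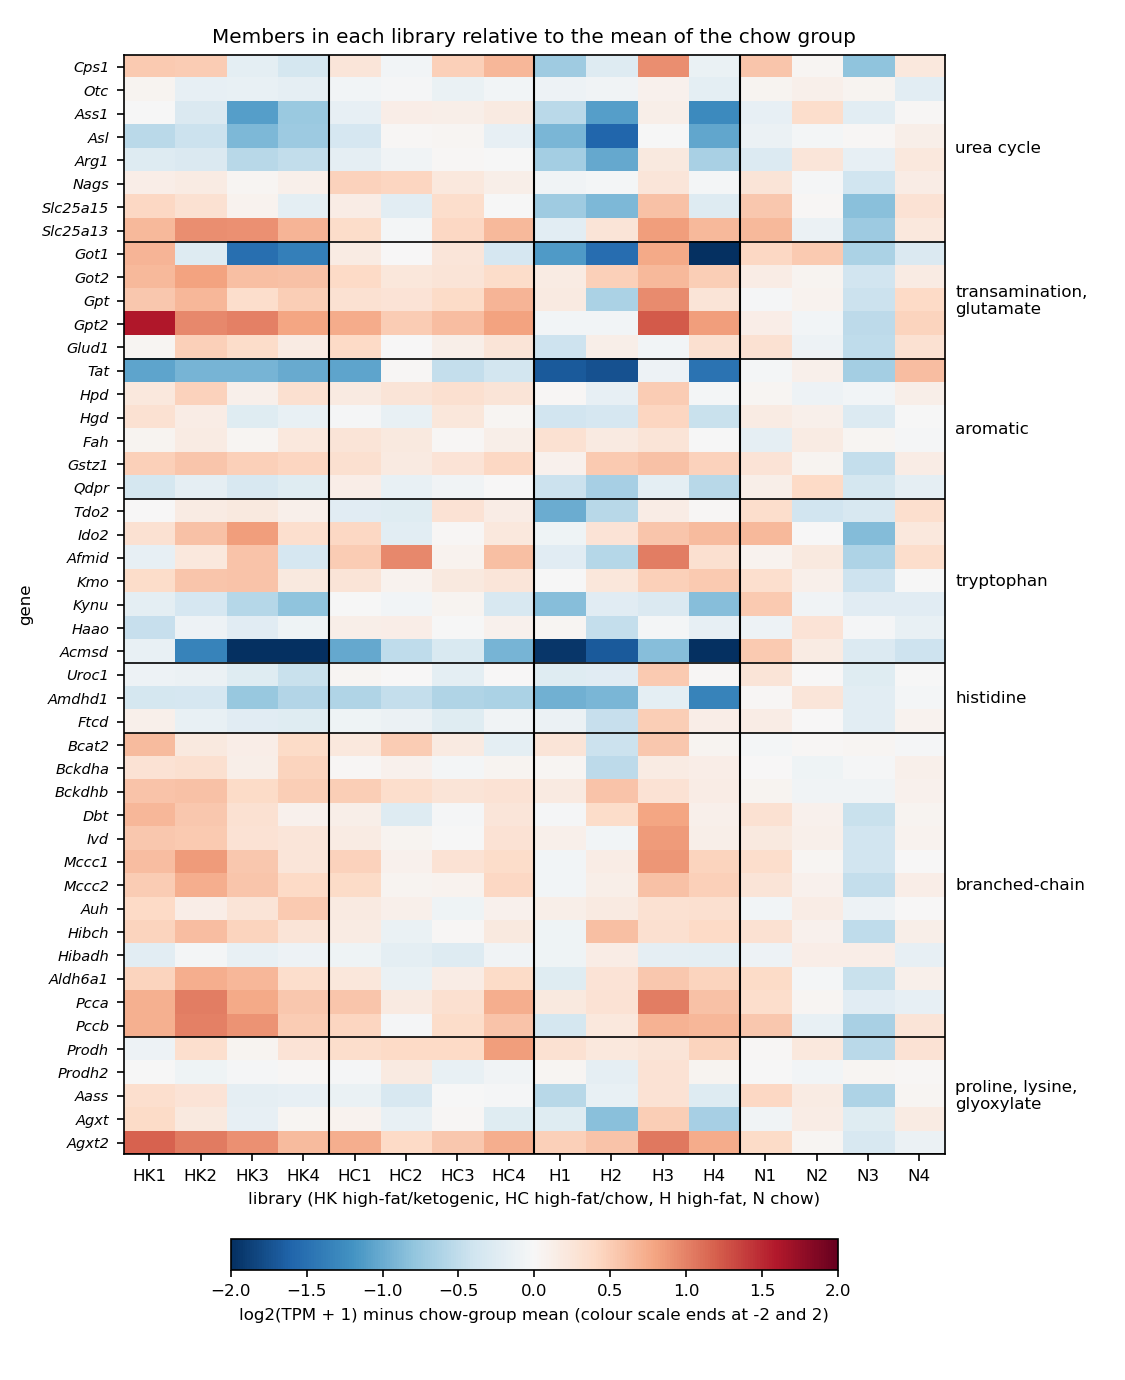
Level of each of the 47 genes (rows, by class) in each of the 16 libraries (columns, HK, HC, H and N from left to right), as log2(TPM + 1) minus the mean of the 4 chow libraries, with a colour scale that ends at -2 and 2. The column of the third H library is higher than those of the other H libraries in 36 of the 47 genes.

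The tissue label was checked against markers of hepatocytes, of which 9 of 10 are in the table: their summed level was 95500 to 103000 TPM in HK, 116000 to 125000 in HC, 94500 to 138000 in H and 99400 to 111000 in N, with HK below HC without overlap, and none was at 0. Kidney tubule markers summed to at most 0.12 TPM and exocrine pancreas markers to at most 2.47 TPM, including some listed at 0. The 20 most abundant genes took 27.1% to 38.8% of all TPM and between 10575 and 11695 genes reached 1 TPM. Log2 levels of replicates correlated across genes, which are not independent replicates, with r between 0.961 and 0.99. Depth is unknown, since TPM keeps no read totals. In whole liver, fewer cells of a type and less RNA per cell cannot be told apart.

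A pair of libraries stood apart from their groups in these genes. The third H library was the highest of its group in 36 of the 47 genes and the lowest in 0. Its urea cycle genes lay above the mean of the other 3 H libraries by a median of 1.03 on the log2 scale, against 0.30 for all genes averaging at least 1 TPM. The third N library was the lowest of its group in 35 of the 47 genes and the highest in 3, with a median difference of -0.46 in the 47 genes and -0.32 in all genes. That library also had the highest share of TPM in 20 genes, 38.8%, and in mitochondrially encoded genes, 18.4%. It is 1 of 4 libraries with over 33% of TPM in 20 genes, the others being the first and the second H and the second N library. Several results that involve H or N are therefore also given without 1 or more of these libraries. The third H and the third N library were singled out by the same 47 genes. Calls made without either are thus not independent of that choice and show only how far a result rests on it.

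**Figure D2:**
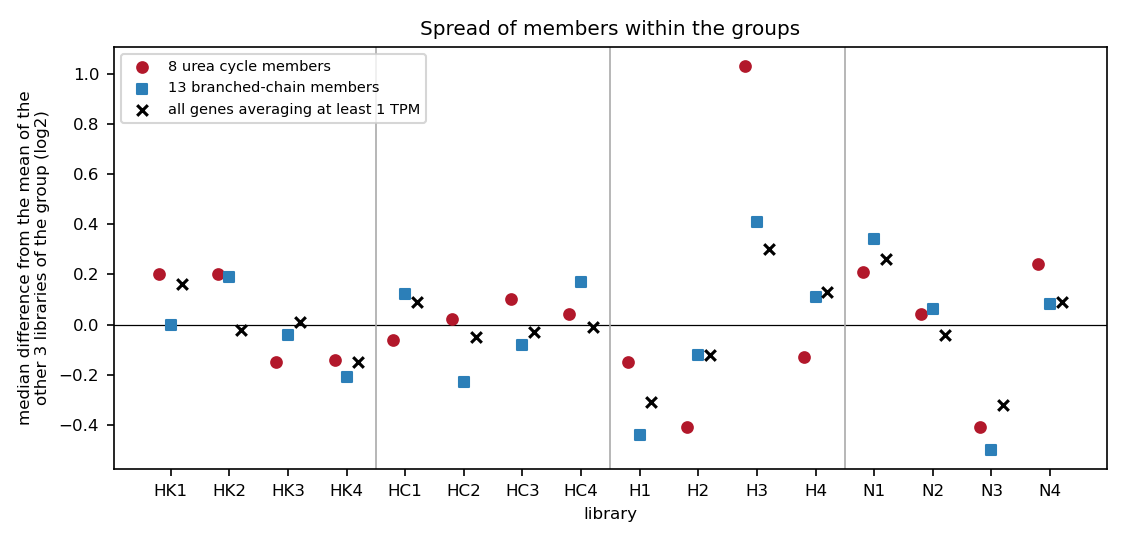
Median log2 difference of each library (x axis) from the mean of the other 3 libraries of its group, for 8 urea cycle genes (circles), 13 branched-chain genes (squares) and all genes averaging at least 1 TPM (crosses). The urea cycle median of the third H library is 1.03, above its all-gene value of 0.30, and the branched-chain median of the third N library is -0.50.

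Each pair of regimens was compared over all genes with limma on log2(TPM + 1), and called genes are those whose p, adjusted over all genes tested (Benjamini-Hochberg), lay under 0.05. All fold changes are on that scale. The comparison of HK with N, ketogenic alternation against plain chow, had the most calls: 7 of the 47 genes, or 14.9%, against 5.00% of all 11091 genes tested. Agxt2, Gpt2, Pcca, Got2 and Bckdhb were higher in HK, where 3.67% of all genes were called higher. Asl and Tat were lower in HK, where 1.33% of all genes were called lower. Between HK and HC, the 2 alternating regimens, 2 of the 47 genes were called, Got2 higher and Asl lower in HK, against 5.04% of all genes. Between HC and N, alternation of high-fat diet and chow against plain chow, 1 gene was called, Amdhd1, lower in HC, against 1.16% of all genes. Between H and N, the effect of the unbroken high-fat diet, 1 gene was called, Acmsd, lower in H, against 1.06% of all genes. The shares called in these last 3 comparisons, 2 or 1 of 47, are near their backgrounds. At an unadjusted p below 0.05 (limma) the shares of the 47 were above those of all genes. They were 53.2% against 22.2% for HK against N and 51.1% against 29.0% for HK against HC. For HC against N they were 23.4% against 12.3%, and for H against N 21.3% against 11.6%.

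The counts moved with single libraries. For HK against N, 14 genes were called without the first N library, where 14.8% of all genes were, 4 without the first HK (3.14% of all genes), 3 without the fourth N (2.66%), and 1 each without the second HK (1.66%), the third HK (1.88%) or the second N (2.82%). For HK against HC, 12 of the 47, or 25.5%, were called without the fourth HK library, near the 23.0% of all genes called there, and 0 without the second or the third HK or the second, the third or the fourth HC, where 1.49% to 2.95% of all genes were. For HC against N, 2 were called without the first N library (2.25% of all genes) and 0 without any 1 HC library or the second or the fourth N (0.298% to 0.520% of all genes). For H against N, 5 were called without the third H library, all of them lower in H, where 1.16% of all genes were called, and 0 without any of the other 7 (0.332% to 0.772% of all genes). Without the 4 libraries over 33% in 20 genes, HK against N kept 1 call, Tat (1.73% of all genes), and H against N kept 0 (0.183%). Median-of-ratios scaling, which sets the libraries level on their typical gene, moved the median of all genes for HK over N from 0.15 to 0.01 and called 9 of the 47 genes there, 4 higher and 5 lower, with 6.72% of all genes. Under it 54.9% of all calls between HK and N were higher in HK, against 73.3% as deposited. For HK against HC the share was 43.3% against 85.6%, with 0 of the 47 genes called higher and 5 lower. For HC against N it was 70.1% against 55.6%, with 2 called higher and 0 lower.

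Against the continuous high-fat diet, limma called 0 of the 47 genes for HC (0.0459% of all genes called) and 0 for HK (0.0360% of all genes called). At an unadjusted p below 0.05, 6 of the 47 genes differed between HC and H, where 4.15% of all genes did, and all 6 were higher in HC, as were 1.88% of all genes, and 0 differed between HK and H, where 10.0% of all genes did. Without the third H library, 4 genes were called for HC against H, Acmsd, Asl, Ass1 and Got1, all higher in HC, where 0.298% of all genes were called. For HK against H the count without that library was 0, where 0.201% of all genes were called, and 16 of the 47 passed an unadjusted p of 0.05, or 34.0%, against 21.4% of all genes. In a test for any difference among the 4 regimens, 3.87% of all genes and 2 of the 47 passed, Agxt2 at an adjusted p of 0.0114 and Got2 at 0.0349 (limma F-test). Agxt2 passed in 15 of the 16 removals of a single library, all but that of the fourth N library, and failed without the 4 libraries over 33% in 20 genes. Got2 passed in 5 of the 16 removals and failed in 11. Acmsd, Amdhd1, Bckdhb and Asl came next, at 0.0514, 0.0537, 0.0622 and 0.0624, and 10 genes passed without the third H library, where 5.55% of all genes did. The HK, HC and H comparisons with N share the same chow libraries and are not independent of each other.

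Groups that did not overlap at all were counted as well. HK and N did not overlap in 14 of the 47 genes, or 29.8%, against 13.3% of all genes. HC and N did not overlap in 7 genes, or 14.9% (background 8.48%), and H and N in 4, or 8.51% (background 8.22%). HK and HC did not overlap in 9, or 19.1% (background 16.8%). Of these, 4 were higher in HK, or 8.51% against 14.7% of all genes, and 5 were lower, or 10.6% against 2.06%. HC and H did not overlap in 1, Qdpr, or 2.13% (background 3.02%), and HK and H in 0 (background 6.85%).

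**Figure D3:**
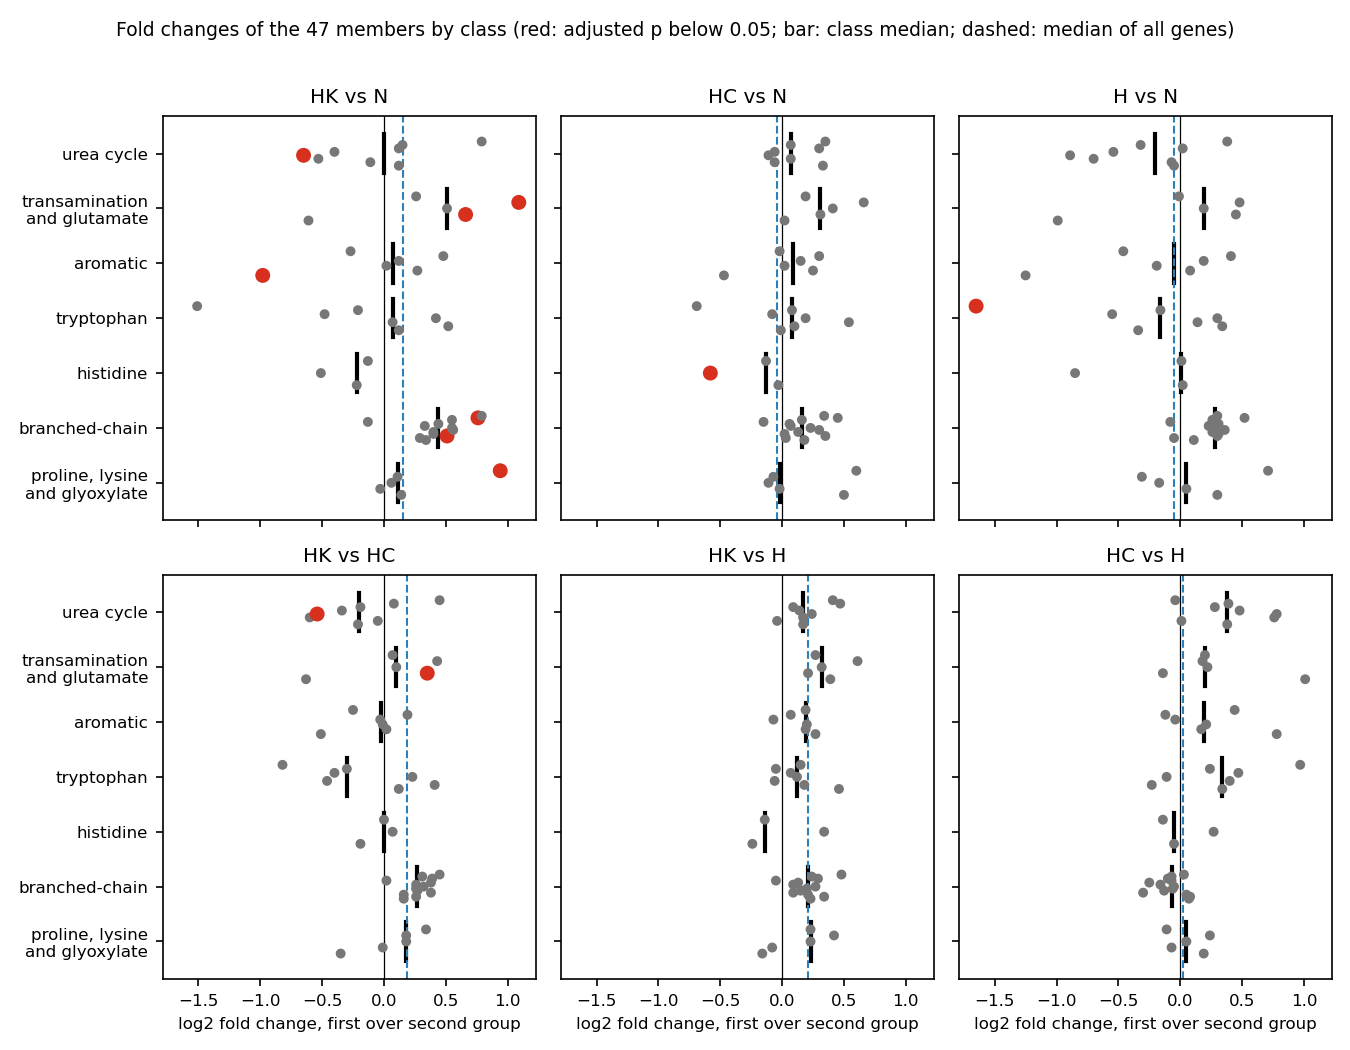
Log2 fold changes of the 47 genes (points) by class (rows) in the 6 comparisons (panels, the group named first over the group named second), with class medians as bars, the median of all genes dashed and called genes in red. In HK against N, 12 of the 13 branched-chain genes lie above 0 and all 3 histidine genes lie below it. Of all genes tested, 68.8% had values above 0 in that comparison.

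Of the mitochondrial aminotransferases, Agxt2, Gpt2 and Got2 were called higher in HK than in N, and Bcat2, at a log2 fold change of 0.34, was not (limma adjusted p = 0.193). Agxt2 encodes a mitochondrial alanine-glyoxylate aminotransferase that also handles beta-aminoisobutyrate, a breakdown product of thymine, and lies on chromosome 15, plus strand, from 10358537 to 10410153 (mm10, leading transcript). It had 183, 166, 152 and 126 TPM in HK, 134, 107, 118 and 134 TPM in HC, 113, 120, 169 and 135 TPM in H, and 105, 83.2, 64.7 and 74.6 TPM in N. Every library of the 3 regimens that contain high-fat food was above every chow library. The difference was called for HK against N, with a log2 fold change of 0.94 (SE 0.172, limma adjusted p = 0.011). It was 0.60 for HC (adjusted p = 0.111) and 0.71 for H (adjusted p = 0.143), neither called. Leaving out the second HK library moved the HK value to 0.91 with an adjusted p of 0.0512, and leaving out any other single library kept the call.

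Gpt2, the mitochondrial alanine aminotransferase that links alanine to pyruvate, lies on chromosome 8, plus strand, from 85492576 to 85527560. It measured 345, 220, 227 and 196 TPM in HK, 189, 160, 174 and 197 TPM in HC, 108, 108, 266 and 201 TPM in H, and 124, 109, 77.9 and 153 TPM in N. HK and HC each lay wholly above N, while H overlapped every other group. The log2 fold change of HK over N was 1.09 (SE 0.222, limma adjusted p = 0.0176), the only called change among the 47 genes in this comparison of at least 2-fold. Without the second or the third HK library or the second N library the adjusted p was 0.0549, 0.0537 or 0.0545. The cytosolic enzyme Gpt averaged 289 ± 26.2 TPM in HK and 206 ± 48.1 TPM in N (SD, n = 4 each), a log2 fold change of 0.51 that was not called (limma adjusted p = 0.112).

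Got2, the mitochondrial aspartate aminotransferase of the malate-aspartate shuttle, lies on the minus strand of chromosome 8 from 95864134 to 95888547. Its levels were 444, 492, 427 and 422 TPM in HK, 373, 331, 336 and 362 TPM in HC, 317, 394, 441 and 399 TPM in H, and 313, 294, 217 and 316 TPM in N. HK did not overlap HC or N, and H overlapped HK only through the third H library. The log2 fold change was 0.66 against N (SE 0.145, limma adjusted p = 0.0254) and 0.35 against HC (SE 0.0844, limma adjusted p = 0.0437). The call against N was lost without the first, the second or the third HK library or the second N library, at adjusted p between 0.0617 and 0.102. The call against HC was kept in 1 of 8 such removals, that of the fourth HK library, and was lost under median-of-ratios scaling, where the log2 fold change was 0.15.

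Got1, the cytosolic aspartate aminotransferase, varied widely within HK and H. It had 305, 160, 66.6 and 73.6 TPM in HK, 213, 191, 225 and 151 TPM in HC, 86.8, 65.8, 324 and 43.7 TPM in H, and 253, 274, 122 and 156 TPM in N. The third H library was several times above the other H libraries, and the HK libraries ran from 66.6 to 305 TPM, overlapping every other group. No comparison called Got1 with all libraries. Without the third H library it was lower in H than in N by a log2 fold change of -1.58 (limma adjusted p = 0.0447) and higher in HC than in H by 1.60 (limma adjusted p = 0.0122). Glud1, which releases ammonia from glutamate, averaged 483 ± 66.3 TPM in HK, 460 ± 53.6 in HC, 405 ± 84.5 in H and 411 ± 105 in N (SD, n = 4 each) and was called in no comparison.

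Set within each library, the ratio of Got2 to Got1 ranged from 1.45 to 6.42 in HK (median 4.40), 1.50 to 2.40 in HC (median 1.74), 1.36 to 9.13 in H (median 4.82) and 1.07 to 2.02 in N (median 1.52). The lowest H value belonged to the third H library, and without it the H ratios of 3.65, 5.99 and 9.13 lay above every HC and N library. The ratio of Gpt2 to Gpt was 0.686 to 1.18 in HK and 0.515 to 0.623 in N, with no overlap, and the HC range of 0.607 to 0.757 and the H range of 0.469 to 0.83 overlapped both. These ratios were chosen after their levels were seen and were not tested.

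**Figure D4:**
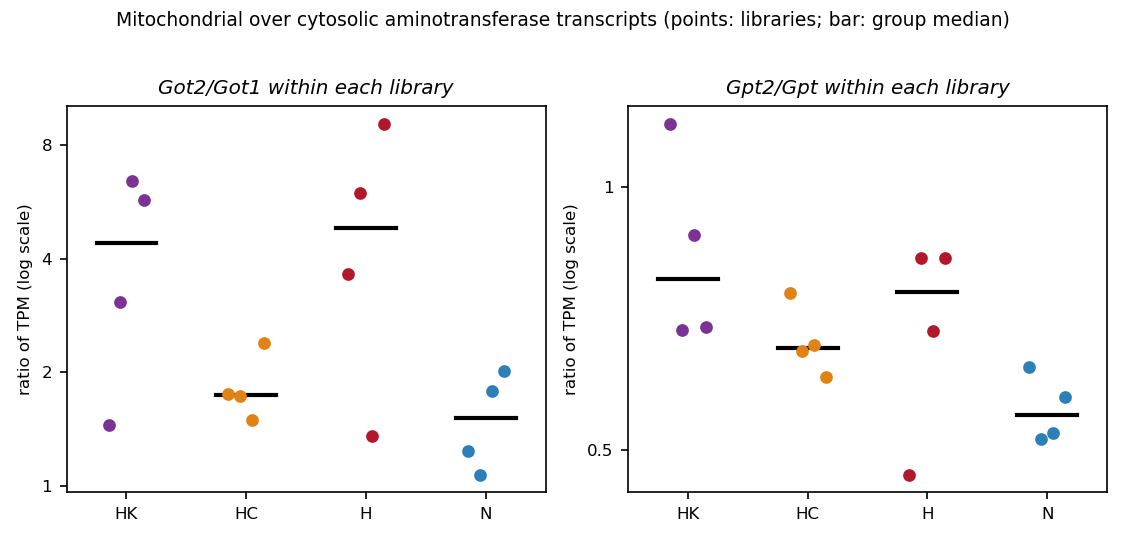
Ratio of the mitochondrial to the cytosolic aminotransferase transcript in TPM within each library (log scale), for aspartate (Got2 over Got1) and alanine (Gpt2 over Gpt), by group with HK, HC, H and N from left to right and bars at group medians. For Gpt2 over Gpt, the HK values start at 0.686, above the highest N value of 0.623, and the Got2 over Got1 values of H reach 9.13.

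The upstream sequences of 3 called aminotransferases are shown because these genes were called in opposite directions. Agxt2 and Gpt2 were higher in HK than in N, and Tat was lower in HK than in N. Each line holds the 250 bases before the RefSeq start of the gene (build GRCm38.p6, plus strand in all 3), at chr15:10358283-10358532 for Agxt2, chr8:85492326-85492575 for Gpt2 and chr8:109990186-109990435 for Tat. Capitals mark matches, on either strand, to 5 motifs: TGACG, the core of the cAMP response element, TTNNGCAA of C/EBP factors, TGNACTTTG of HNF4A, TGTTCT of the glucocorticoid receptor, and the TATAAA box.
Agxt2: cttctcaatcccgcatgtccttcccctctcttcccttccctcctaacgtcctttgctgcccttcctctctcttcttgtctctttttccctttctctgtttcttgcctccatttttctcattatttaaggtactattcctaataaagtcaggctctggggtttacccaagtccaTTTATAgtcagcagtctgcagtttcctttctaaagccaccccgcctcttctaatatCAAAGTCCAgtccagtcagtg
Gpt2: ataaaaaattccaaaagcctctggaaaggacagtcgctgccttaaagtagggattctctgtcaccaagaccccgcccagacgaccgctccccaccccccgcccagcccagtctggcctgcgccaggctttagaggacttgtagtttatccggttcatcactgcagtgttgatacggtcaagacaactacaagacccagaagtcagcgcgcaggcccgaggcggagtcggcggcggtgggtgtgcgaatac
Tat: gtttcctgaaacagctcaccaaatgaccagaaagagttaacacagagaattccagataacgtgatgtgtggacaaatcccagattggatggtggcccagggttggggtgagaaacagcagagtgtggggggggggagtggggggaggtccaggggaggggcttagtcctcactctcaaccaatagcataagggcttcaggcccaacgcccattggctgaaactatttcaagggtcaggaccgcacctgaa
The Agxt2 window held TATAAA and TGNACTTTG, both on the minus strand and not overlapping, and the other windows held none of the 5. RefSeq promoters were matched for 40 of the 47 genes, all but Cps1, Asl, Arg1, Gpt, Ido2, Kynu and Dbt. TGNACTTTG occurred in 2 of these 40, or 5%, and in 1.19% of 32851 promoters of the same length. TGACG occurred in 15% against 17.8%, TTNNGCAA in 10% against 9.56%, TGTTCT in 10% against 16.1% and TATAAA in 12.5% against 12.4%. A match is a run of letters and not a measured binding site. Bases outside these windows of 250 were not searched, so a window with no match does not show that a gene lacks such sites.

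In the urea cycle, the cytosolic enzymes Ass1, Asl and Arg1 had lower mean levels in HK and H than in HC and N, and on TPM as deposited with all libraries Asl alone of the 3 was called. Asl, argininosuccinate lyase, which splits argininosuccinate into arginine and fumarate, lies on the minus strand of chromosome 5 from 130011258 to 130024381. It had 480, 514, 371 and 419 TPM in HK, 548, 709, 716 and 623 TPM in HC, 368, 230, 695 and 338 TPM in H, and 644, 680, 703 and 758 TPM in N. The HK libraries lay below every HC and N library, and the third H library lay among the HC and N libraries while the other 3 H libraries lay below every HK library. Asl fell in HK by 0.65 relative to N (SE 0.135, limma adjusted p = 0.0194) and by 0.54 relative to HC (SE 0.125, limma adjusted p = 0.037), both log2. The call against N was lost without the third HK library or the second or the fourth N library, at adjusted p = 0.0752, 0.0545 and 0.0669. The call against HC was lost without the second or the third HK library or the second, the third or the fourth HC library, at adjusted p between 0.0531 and 0.114.

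Asl differed from N in H by a log2 fold change of -0.89 with all libraries (limma adjusted p = 0.209), and by -1.18 without the third H library (limma adjusted p = 0.0149). HC over H was 0.78 for Asl (limma adjusted p = 1) and 1.07 without that library (limma adjusted p = 0.0368). Reads of this gene were divided among 3 main transcripts with mean shares of 43.1%, 35% and 20.1%, and the share of the leading one ran from 1.1% to 75.6% between libraries. Values here are for the whole gene.

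Ass1, which joins citrulline to aspartate and precedes Asl, had 2465, 2038, 1158 and 1487 TPM in HK, 2204, 2722, 2680 and 2815 TPM in HC, 1712, 1151, 2685 and 1029 TPM in H, and 2208, 3164, 2141 and 2519 TPM in N. It was called in no comparison with all libraries, and without the third H library HC exceeded H by 1.03 (log2, limma adjusted p = 0.0464). Arg1, arginase, which releases urea, averaged 1238 ± 126 TPM in HK, 1565 ± 93.8 in HC, 1181 ± 471 in H and 1646 ± 293 in N (SD, n = 4 each). HK and HC did not overlap in Arg1, at 1111 to 1363 TPM in HK and 1439 to 1653 TPM in HC, with a log2 fold change of -0.34 that missed the threshold (limma adjusted p = 0.0644) and was called under median-of-ratios scaling (-0.54, limma adjusted p = 0.0306).

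The mitochondrial urea cycle enzymes had overlapping groups in most comparisons and no call with all libraries. Cps1, which makes carbamoyl phosphate from ammonia, averaged 817 ± 249 TPM in HK, 929 ± 194 in HC, 772 ± 417 in H and 765 ± 268 in N (SD, n = 4 each). Otc, which forms citrulline, averaged 276 ± 21.5 TPM in HK, 284 ± 9.32 in HC, 283 ± 23.4 in H and 298 ± 28.8 in N. Nags, whose product activates Cps1, averaged 64.7 ± 2.43 TPM in HK, 74.2 ± 9 in HC, 60.8 ± 6.47 in H and 60.5 ± 11.7 in N. Of the carriers, Slc25a13, which exports aspartate from mitochondria, had 164, 200, 196 and 167 TPM in HK and 163, 95.4, 62.2 and 121 TPM in N. HK did not overlap N in this carrier, and the log2 fold change of 0.79 was not called (limma adjusted p = 0.0896). It was 1.01 and called without the first N library (limma adjusted p = 0.0117), where 14.8% of all genes were called. Slc25a15, the ornithine carrier, gave 0.15 in the same comparison (limma adjusted p = 0.748).

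As a class, the 8 urea cycle genes had a median log2 fold change of 0 for HK over N, with 4 higher and 1 called lower, beside 0.15 for all genes. Under median-of-ratios scaling it was -0.16, without the third N library -0.14 and without the 2 N libraries over 33% in 20 genes -0.26, each with 1 of 8 higher. For HK over HC the median was -0.20, beside 0.19 for all genes. For H over N it was -0.20 with 2 of 8 higher, -0.50 with 1 of 8 higher without the third H library, and -0.45 with 1 of 8 higher without the third N library. For HC over H it was 0.38 with 7 of 8 higher, 0.70 with 8 of 8 higher without the third H library, and 0.08 with 4 of 8 higher without the 2 H libraries over 33%. For HK over H the median was 0.17, and 0.46 without the third H library, but -0.07 with all libraries under the other scaling and -0.03 with 3 of 8 higher without the 2 H libraries over 33%.

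Tat, tyrosine aminotransferase, which starts tyrosine breakdown, lies on chromosome 8, plus strand, from 109990437 to 109999803, and was the aromatic gene called on TPM as deposited with all libraries. It had 370, 406, 405 and 383 TPM in HK, 372, 785, 552 and 595 TPM in HC, 241, 231, 717 and 278 TPM in H, and 755, 824, 479 and 1190 TPM in N. HK was the tightest group and lay below every N library, and 3 of the 4 H libraries were lower still. Tat fell in HK relative to N by 0.98 on the log2 scale (SE 0.224, limma adjusted p = 0.0293). The call was lost without any 1 HK library or without the second or the fourth N library, at adjusted p between 0.0539 and 0.0869. H over N was -1.25 (limma adjusted p = 0.184), and -1.63 without the third H library (limma adjusted p = 0.0153).

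The later steps of tyrosine breakdown had no call with all libraries. Hpd averaged 2580 ± 269 TPM in HK, 2528 ± 106 in HC, 2290 ± 506 in H and 2128 ± 142 in N (SD, n = 4 each). Hgd, which opens the ring of homogentisate, averaged 508 ± 88.6 TPM in HK, 507 ± 55.4 in HC, 451 ± 145 in H and 500 ± 63.4 in N. Fah, the last enzyme of the route, averaged 532 ± 31 TPM in HK, 545 ± 38.2 in HC, 561 ± 51.6 in H and 491 ± 47.7 in N. Gstz1, the isomerase before Fah, gave the largest upward value of the class for HK over N, 0.48 (limma adjusted p = 0.111). It had 732 to 795 TPM in HK and 390 to 657 TPM in N, with no overlap. Without the first N library Gstz1 was called (0.58, limma adjusted p = 0.0358), where 14.8% of all genes were. Qdpr, which recycles the tetrahydrobiopterin cofactor of phenylalanine hydroxylase, ranged from 376 to 456 TPM in HC and 262 to 365 TPM in H, the only gene of the 47 in which HC and H did not overlap (log2 fold change 0.44, limma adjusted p = 1). Under median-of-ratios scaling Qdpr was called lower in HK than in HC (-0.44, limma adjusted p = 0.0484).

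In the kynurenine route of tryptophan, Acmsd, aminocarboxymuconate semialdehyde decarboxylase, was called on TPM as deposited with all libraries. It lies on chromosome 1, plus strand, from 127729413 to 127767978. Acmsd had 15.5, 6.24, 2.22 and 3.42 TPM in HK, 8.00, 11.9, 13.8 and 8.59 TPM in HC, 3.76, 4.70, 9.16 and 3.14 TPM in H, and 25.2, 19.5, 14.2 and 12.7 TPM in N. All H libraries lay below all N libraries, the HC libraries overlapped both, and 1 HK library stood well above the other 3. The log2 fold change of H over N was -1.65 (SE 0.301, limma adjusted p = 0.0266), the largest called among the 47. Only the removal of the third H library kept this call, at -1.92 (limma adjusted p = 0.0069), and each of the other 7 removals gave an adjusted p between 0.051 and 0.0976. HK over N was -1.51 (limma adjusted p = 0.0679), not called, but it was called without the first HK library (-1.96, limma adjusted p = 0.00787), in the fit over all 16 libraries (adjusted p = 0.0299), with the replicate number as a block (adjusted p = 0.0189) and under median-of-ratios scaling (-1.66, adjusted p = 0.0359). Without the first HK library Acmsd was also called lower in HK than in HC, by -1.27 on the log2 scale (limma adjusted p = 0.0345). HC over N was -0.69 (limma adjusted p = 0.222). HC over H was 0.97 (limma adjusted p = 0.906), and 1.23 without the third H library (limma adjusted p = 0.0466).

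The other 6 genes of the route had no call on TPM as deposited with all libraries. Tdo2, which opens the indole ring, averaged 752 ± 43.6 TPM in HK, 698 ± 129 in HC, 572 ± 197 in H and 712 ± 195 in N (SD, n = 4 each). Haao, which makes the substrate of Acmsd, was 429 to 557 TPM in HK and 582 to 646 TPM in HC without overlap (log2 fold change -0.30, limma adjusted p = 0.0932). Kynu, kynureninase, was 62.5 to 95.8 TPM in HK and 88.1 to 114 TPM in HC, which overlapped (-0.40, limma adjusted p = 0.0991). Under median-of-ratios scaling Kynu was called lower in HK than in HC (-0.59, limma adjusted p = 0.0321) and than in N (-0.64, limma adjusted p = 0.0337). Kmo, the mitochondrial kynurenine hydroxylase, had a log2 fold change of 0.42 for HK over N (limma adjusted p = 0.175), and Ido2 0.52 (limma adjusted p = 0.28). Kmo was called higher in HK than in N without the first N library (0.53, limma adjusted p = 0.0485), where 14.8% of all genes were called. Without the fourth HK library Kmo was called higher and Haao lower in HK than in HC (0.30 and -0.34, limma adjusted p = 0.0391 and 0.0397), where 23.0% of all genes were called. The gene span of Kmo overlaps Fh1 and that of Afmid, the formamidase, overlaps Gm20708 and Tk1, so their reads may be shared, as the handling of strand is not given in the sources used here.

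Histidine breakdown runs from urocanate through Uroc1, Amdhd1 and Ftcd, and Amdhd1 was the gene of the class called lower than in N. Amdhd1, imidazolonepropionase, on the minus strand of chromosome 10 from 93523338 to 93540033, had 190, 192, 142 and 161 TPM in HK, 159, 174, 159 and 156 TPM in HC, 124, 128, 212 and 95.4 TPM in H, and 245, 286, 208 and 235 TPM in N. HK and HC lay wholly below N, and H did so apart from the third H library. Amdhd1 fell in HC relative to N by 0.58 on the log2 scale (SE 0.122, limma adjusted p = 0.0474). The call held in 2 of 8 removals of a single library, those of the first and the third N library, and was lost without any 1 HC library or the second or the fourth N library, at adjusted p between 0.102 and 0.172. HK over N was -0.51 (limma adjusted p = 0.0758), called under median-of-ratios scaling (-0.67, limma adjusted p = 0.0264), and H over N -0.85 (limma adjusted p = 0.14), or -1.07 without the third H library (limma adjusted p = 0.0189). Uroc1, urocanase, and Ftcd, which hands the formimino group to folate, gave -0.22 and -0.13 for HK over N, at limma adjusted p = 0.366 and 0.583. Uroc1 was called lower in HK than in HC under median-of-ratios scaling (-0.39, limma adjusted p = 0.0487).

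**Figure D5:**
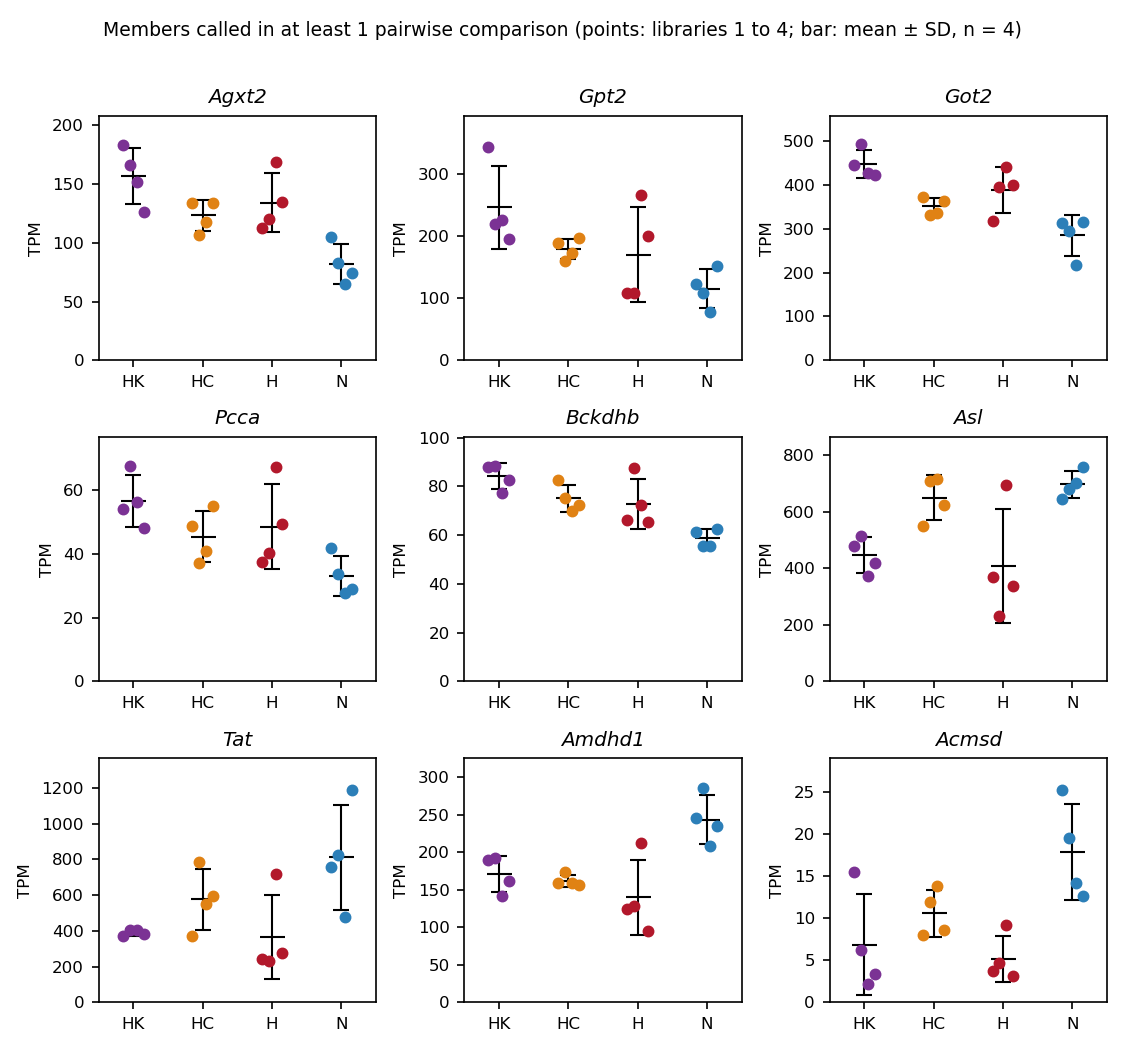
Level in TPM of each of the 9 genes called in at least 1 comparison, by library (points) and group (HK, HC, H and N from left to right), with the mean ± SD of 4 libraries. Asl and Tat in HK lie below every N library, Agxt2, Gpt2, Got2, Pcca and Bckdhb in HK lie above every N library, and the third H library lies far from the other H points in Asl and Tat.

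Of the 13 genes of branched-chain amino acid breakdown, 12 had higher levels in HK than in N, as did 68.8% of all genes. The class had a median log2 fold change of 0.44 beside 0.15 for all genes, and 2 were called, Pcca and Bckdhb. Pcca, the biotin-carrying subunit of propionyl-CoA carboxylase, lies on chromosome 14, plus strand, from 122534339 to 122889944. It had 54, 67.5, 56 and 48 TPM in HK, 48.5, 37.2, 40.9 and 54.8 TPM in HC, 37.3, 40.2, 67.1 and 49.3 TPM in H, and 41.8, 33.6, 27.7 and 28.9 TPM in N. HK lay above every N library, and the first N library lay within the HC and H ranges. Pcca was higher in HK than in N by 0.76 (log2, SE 0.164, limma adjusted p = 0.0232). The call was lost without the first, the second or the third HK library or the second or the fourth N library, at adjusted p between 0.0562 and 0.0959.

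Bckdhb, a subunit of the branched-chain keto acid decarboxylase, lies on chromosome 9, plus strand, from 83925150 to 84124239. Its levels were 88, 88.5, 77.2 and 82.8 TPM in HK, 82.6, 75.4, 70 and 72.2 TPM in HC, 66.3, 87.6, 72.3 and 65.2 TPM in H, and 61.2, 55.7, 55.6 and 62.5 TPM in N. No library on HK, HC or H was as low as any N library. The log2 fold change of HK over N was 0.51 (SE 0.119, limma adjusted p = 0.0319), and those of HC and H over N were 0.35 (limma adjusted p = 0.211) and 0.30 (limma adjusted p = 0.501). The HK call held only without the first or the third N library among the 8 removals, and was lost in the others at adjusted p between 0.0598 and 0.123. The call was also lost under median-of-ratios scaling (0.35, limma adjusted p = 0.106) and with the replicate number as a block (limma adjusted p = 0.073). The leading transcript of Bckdhb took 81.6% of the gene's TPM on average and as little as 48.7% in 1 library. The partner subunit Bckdha averaged 267 ± 24.6 TPM in HK, 222 ± 7.35 in HC, 214 ± 43 in H and 217 ± 12.4 in N (SD, n = 4 each), with HK wholly above HC and N, and was not called (HK over HC 0.26, limma adjusted p = 0.0919).

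The remaining branched-chain genes gave smaller or more variable differences. Pccb, the partner of Pcca, had 146 to 207 TPM in HK and 64.5 to 149 TPM in N, which overlapped, with a log2 fold change of 0.79 (limma adjusted p = 0.0783). Mccc1 and Mccc2, the subunits of the leucine-pathway carboxylase, gave 0.56 and 0.55 for HK over N, at limma adjusted p = 0.109 and 0.0922. Aldh6a1, of the valine and thymine routes, gave 0.55 (limma adjusted p = 0.1), Hibch, of the valine route, 0.44 (limma adjusted p = 0.177), and Ivd, of the leucine route, 0.40 (limma adjusted p = 0.156). Dbt, the core of the keto acid dehydrogenase, gave 0.40, Bcat2, the mitochondrial branched-chain aminotransferase, 0.34, and Auh, of the leucine route, 0.33, none of them called. Hibadh, the step after Hibch, was the exception with -0.13, at 269 ± 13.5 TPM in HK and 295 ± 30.8 TPM in N (SD, n = 4 each).

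Of all genes tested, on TPM as deposited with all libraries, 79.5% were higher for HK over HC, 83.0% for HK over H and 68.8% for HK over N. The shares were 42.8% for HC over N, 41.4% for H over N and 54.7% for HC over H. For HK over HC all 13 branched-chain genes had higher values, with a median of 0.27 beside 0.19 for all genes and none called. Under median-of-ratios scaling that count was 10 of 13 with a median of 0.08. For HC over N 12 of 13 were higher with a median of 0.16, but 10 of 13 with a median of 0.04 without the third N library, and 6 of 13 with a median of 0 without the 2 N libraries over 33% in 20 genes. For H over N 11 of 13 were higher with a median of 0.28, and the median was 0.17 without the third H library and 0.13 without the third N library. For HK over H 12 of 13 were higher with a median of 0.21, beside 0.21 for all genes, but 6 of 13 under that scaling and 9 of 13 with a median of 0.04 without the 2 H libraries over 33%. The direction of HC over H turned with the libraries used: 4 of 13 were higher with all of them (median -0.07), 8 of 13 without the third H library (median 0.05) and 2 of 13 without the 2 H libraries over 33% (median -0.30). For HK over N the class kept 12 of 13 higher without the third N library and 13 of 13 without the 2 N libraries over 33%, with a median of 0.35 in both.

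Outside these routes, Prodh, proline dehydrogenase, averaged 113 ± 15.8 TPM in HK, 145 ± 24.1 in HC, 125 ± 9.15 in H and 104 ± 24.4 in N (SD, n = 4 each) and was not called, with HC wholly above HK and N. Prodh2, the hydroxyproline enzyme, kept 205 ± 6.62 TPM in HK, 207 ± 20 in HC, 217 ± 28.3 in H and 208 ± 6.36 in N. Aass, which starts lysine breakdown, and Agxt, the alanine-glyoxylate enzyme that removes glyoxylate, had log2 fold changes of 0.06 and 0.11 for HK over N, at limma adjusted p = 0.879 and 0.681.

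Across classes, the medians for HK over N were 0.51 for transamination and glutamate, 0.44 for the branched-chain genes, 0.11 for proline, lysine and glyoxylate, 0.07 for the aromatic and for the tryptophan genes, 0 for the urea cycle and -0.22 for histidine. The median of all 47 genes was 0.14, beside 0.15 for all genes tested. For HK over HC the tryptophan median was -0.30, that of transamination 0.10 (-0.09 under median-of-ratios scaling) and that of the 47 genes 0.08 (-0.11 under it), beside 0.19. Histidine genes were higher in 0 of 3 for HK over N. For HC over N the count was 0 of 3, and 1 of 3 under median-of-ratios scaling. For H over N it was 2 of 3 (median 0.01), but 0 of 3 without the third H library (median -0.15) or without the third N library (median -0.07). Without the third N library the tryptophan median for HK over N was -0.13 and that of the 47 genes 0.03. Under median-of-ratios scaling the urea cycle median for HK over N was -0.16, that of transamination 0.34, that of histidine -0.39 and that of the branched-chain genes 0.28, and the aromatic, tryptophan and proline classes lay at -0.10, -0.09 and -0.05, so 3 classes above 0 as deposited lay below it.

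The 26 genes whose products work in mitochondria and the 19 whose products work in the cytosol were also set apart, a division made after the values were seen and given with no test. The mitochondrial set holds all 13 branched-chain genes. Gstz1 and Agxt were placed in neither set, and had log2 fold changes of 0.48 and 0.11 for HK over N. For HK over N the mitochondrial genes had a median of 0.40, with 23 of 26 higher and 5 called higher, and the cytosolic genes a median of -0.22, with 7 of 19 higher and 2 called lower. Relative to the median of all genes, 18 of 26 mitochondrial and 3 of 19 cytosolic genes were above it. For HK over HC the medians were 0.26 and -0.25, with 15 of 26 and 1 of 19 above that of all genes. For HK over H the medians were alike, 0.21 and 0.18 beside 0.21 for all genes, with 13 of 26 and 6 of 19 above it. For HC over N they were 0.19 and -0.01 beside -0.04 for all genes, with 23 of 26 and 12 of 19 above it. For H over N they were 0.27 and -0.34, and they were 0.17 and -0.51 without the third H library and 0.12 and -0.45 without the third N library. For HC over H they were -0.04 and 0.34, but 0.08 and 0.50 without the third H library, with 19 of 26 and 17 of 19 higher, and -0.25 and 0.16 without the 2 H libraries over 33% in 20 genes. For HK over N, median-of-ratios scaling gave 0.24 and -0.39, and removal of the third N library 0.28 and -0.31, with 18 of 26 and 5 of 19 higher.

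A further 48 enzymes of amino acid breakdown were examined as a wider list, of which 44 were tested in HK against N and 11 were called higher and 2 lower there, where 3.67% of all genes were called higher and 1.33% lower. The 4 with the smallest adjusted p were Hsd17b10, of the isoleucine route, with 397 ± 49.6 TPM in HK and 189 ± 14.6 TPM in N (log2 fold change 1.06, limma adjusted p = 0.00136), Mmab, which activates vitamin B12 (1.78, adjusted p = 0.00181), Acat1, the thiolase of isoleucine and ketone bodies (1.12, adjusted p = 0.00429), and Sds. Sds, serine dehydratase, was lower, at 202 ± 51.8 TPM in HK and 481 ± 99.6 TPM in N (log2 fold change -1.26, limma adjusted p = 0.00524). Against N, 3 of the list were higher and 0 lower in H (Hsd17b10, Mmab and Bhmt, which methylates homocysteine, with 0.575% of all genes higher) and in HC (Hsd17b10, Bhmt and Oat, with 0.644% of all genes higher). In HK against HC 6 were higher and 0 lower, where 4.31% of all genes were higher and 0.727% lower, led by Hykk, hydroxylysine kinase, at 0.91 (limma adjusted p = 0.00685), Tha1, threonine aldolase, at 0.93 (0.014), Acat1 at 0.74 (0.0166) and Ppm1k, the phosphatase that activates the branched-chain keto acid dehydrogenase, at 0.82 (0.0218). Limma called none in HC or HK against H, where 3 and 8 passed an unadjusted p of 0.05.

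Among 18 tested amino acid transporters, HK against N gave 1 higher, Slc38a3, the glutamine carrier, at 840 ± 57.3 TPM in HK and 427 ± 53.9 TPM in N (log2 fold change 0.98, limma adjusted p = 0.00181), and 1 lower, Slc3a2, at -0.57 (limma adjusted p = 0.0257). Among 16 regulators, Sirt5, a mitochondrial deacylase known to act on Cps1, was the only call, at 0.68 for HK over N (limma adjusted p = 0.0283) and 0.54 for HK over HC (limma adjusted p = 0.0326). Of all genes, 3.67% were called higher and 1.33% lower in HK against N, and 4.31% higher in HK against HC. No other comparison called a transporter or a regulator with limma, and 1 to 5 transporters and 1 or 2 regulators passed an unadjusted p of 0.05 in them.

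Markers of liver zones moved with the same comparisons. Of 10 pericentral markers, 5 were called higher in HK than in N, 4 in HC, 1 in H, and 0 in HK against HC, beside the shares of all genes just given. Called or not, 9 of these markers were higher and 1 was lower than in N in each of HK, HC and H. Their summed level was 9180 to 13500 TPM in HK, 8360 to 10800 in HC, 7850 to 10900 in H and 5470 to 6670 in N, with no N library reaching any other group. Of 10 periportal markers, 2 were called lower in HK than in N, Sds and Pck1, 1 was called lower in HK than in HC, Cyp2f2, and 0 were called in H or HC against N. The list was mixed in direction. Relative to N, 7 were lower and 3 higher in HK, 6 lower and 4 higher in HC, and 7 lower and 3 higher in H. The periportal sums were 3090 to 3880 TPM in HK, 2760 to 4090 in HC, 2050 to 4930 in H and 4260 to 5550 in N. The HK and HC sums thus lay below those of every N library, and H overlapped N. No marker of either list was at 0, and their part in the lower Asl, Tat, Amdhd1 and Acmsd and in the higher Agxt2, Gpt2, Got2, Pcca and Bckdhb was not tested. As background for the lists that follow, 68.8% of all genes were higher in HK than in N and 79.5% were higher in HK than in HC. The medians of all genes were 0.15 and 0.19. Of the 9 hepatocyte markers, 8 had lower levels in HK than in HC, with a median log2 fold change of -0.31 and 1 called, Ambp, and the sums given above did not overlap between these groups. Against N, 5 of the 9 were lower in HK and 4 higher, with a median of -0.05, 2 called lower and 1 called higher. All 6 sinusoidal endothelial markers had higher levels in HK than in HC, with a median of 0.54 and 1 called. The same 6 were all higher in HK than in N, with a median of 0.50 and 0 called. Their sums were 120 to 194 TPM in HK, 78.7 to 118 in HC, 101 to 144 in H and 87.3 to 166 in N, and none was at 0. Of 7 stellate cell markers, 6 were higher in HK than in N (median 0.58) and 6 were higher than in HC (median 0.42), with 0 called in either. The part of the hepatocyte, endothelial and stellate lists in the genes called in HK against N and against HC was not tested. All 8 Kupffer cell markers had higher levels in HK than in N, with a median log2 fold change of 0.84 and none called, and higher levels in HK than in HC, with a median of 0.77 and none called. Their sums were 159 to 554 TPM in HK, 178 to 240 in HC, 207 to 395 in H and 148 to 363 in N, none of the markers was at 0, and their part in the results was not tested. Adipocyte markers summed to 12.8 to 42.1 TPM in HK, 0 to 1.42 in HC, 0.784 to 3.48 in H and 0 to 0.447 in N. Of that list of 5, only Cfd passed the filter for HK against N, at 24.6 ± 13.2 TPM in HK and 0.221 ± 0.255 TPM in N (log2 fold change 4.27). With N sums of at most 0.447 TPM, Cfd reached 1 TPM in HK alone. It could therefore only come out higher in HK, and its p-value is not given. Lep and Retn were at 0 in all HK libraries, Adipoq, Plin1, Lep and Retn were at 0 in all N libraries, and the part of this list in the results was not tested.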

How the data were processed

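Liver RNA of 16 mouse samples was sequenced on an Illumina HiSeq4000 after library preparation with a NEBNext Ultra kit, per the labels. Per the submitters' processing notes, the authors mapped reads to mm10 with HISAT2 and estimated expression with RSEM 1.1.17 over Ensembl release 96. The deposited tables give 1 value per gene and per transcript in TPM: the design text names FPKM, but every deposited column sums to 1000000, so the values were read as TPM. Depth is unknown, and no counts were used here. The authors' own tests, with edgeR 3.14.0 per the same notes, were not used.

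Values were log2(TPM + 1) transformed, a gene entered a comparison when 4 or more of its 8 libraries reached 1 TPM, and each pair of groups was fitted over all genes with limma 3.58.1 in R 4.3.3 (trend, empirical Bayes), with Benjamini-Hochberg adjustment over all genes tested; calls needed an adjusted p under 0.05 and no minimum fold. The 4 regimens together were compared with an F-test over 16 libraries. Fold changes understate those of low genes. The code was tested on simulated data. Alternatives were a pseudocount of 0.1, no filter, median-of-ratios scaling, 1 fit over all 16 libraries, the replicate number as a block, removal of each library in turn, removal of libraries with over 33% of TPM in 20 genes, and a fold change of at least 2.

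The 47 genes and all lists were chosen with earlier results of these data known. Genes called in any comparison are given in every library. From the other lists, up to 4 called genes per list and comparison were named by smallest adjusted p. The zone and adipocyte markers named are exceptions. Promoters come from RefSeq (GRCm38.p6). Gene coordinates are those of the leading transcript in the deposited table.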

Additional observations from a re-analysis of the deposited data

Results flagged for a closer look

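Each group's highest and lowest library was set against the others for each of the 47 genes, 188 groups in all, and 9 stood out because the gap to the nearest library, divided by the range of the group, exceeded Dixon's critical value. Chance alone gives about 1 in 20 such groups. The third H library accounts for 5 of the 9: Got1 at 324 TPM beside 86.8 in the next library, Tat at 717 beside 278, Hgd at 668 beside 392, Ivd at 175 beside 105 and Nags at 70.5 beside 58.0. The other 4 were Otc in the first HK library at 308 TPM (next 269), Kynu in the first N library at 159 (next 105), Prodh in the fourth HC library at 181 (next 134) and Uroc1 in the third HC library, low at 155 (next 179). Comparisons without the third H library are given with the results.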

How the results depend on the processing

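All 11 calls of single genes kept their sign under all alternatives. The fits with no filter, over all 16 libraries or with a block leave the fold change as it is, so they could not change a sign. Agxt2 in HK against N kept its call in 12 of 14 alternatives, the most of all. The rest ran from 2 of 13 for Got2 in HK against HC to 9 of 14 for Gpt2 in HK against N. With single libraries removed, the number of the 47 genes called ranged from 0 to 5 for H against N, 0 to 4 for HC against H, 0 to 12 for HK against HC, 0 to 2 for HC against N, 1 to 14 for HK against N and 0 to 10 for any of the 4 regimens, and stayed at 0 for HK against H. The highest counts came without the third H library (5, 4 and 10), the fourth HK library (12) and the first N library (2 and 14). Over all genes these removals gave 36 to 125 calls for H against N (116 with all libraries), 3 to 32 for HC against H (5), 2 to 22 for HK against H (4), 162 to 2513 for HK against HC (554), 32 to 242 for HC against N (126) and 181 to 1620 for HK against N (555).

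Without the filter, 0 of the 47 were called for H against N, HK against HC and HC against N. With a pseudocount of 0.1, 0 were called for HC against N. A fit over all 16 libraries called 5 for H against N and 0 for HK against HC and HC against N. Without libraries over 33% in 20 genes, 0 were called for H against N, 1 for HK against N (Tat) and 1 for any regimen. With a fold change of at least 2, 0 were called for HK against HC and HC against N and 1 for HK against N (Gpt2). Median-of-ratios scaling called 2, 5, 2, 9 and 10 for H against N, HK against HC, HC against N, HK against N and any regimen. It moved the median of all genes from 0.15 to 0.01 for HK over N, 0.21 to 0.01 for HK over H and 0.19 to 0.02 for HK over HC, and the share of calls that were higher from 85.6% to 43.3% for HK against HC, 73.3% to 54.9% for HK against N and 55.6% to 70.1% for HC against N. The causes were not tested.

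Groups share replicate numbers 1 to 4 in the labels. Deviations of same-numbered libraries correlated with r between -0.58 and 0.39 over the 6 comparisons. In HC against H this r was 0 to 0.39, and 2 of 4 libraries matched best with their own number. In each of the other comparisons 0 of 4 did. With the replicate number as a block, 0 of the 47 were called for H against N, HK against HC and HC against N, 5 for HK against N (418 of all genes) and 1 for any regimen. For HC against H the block gave 0 of the 47 and 12 of all genes, against 5 of all genes without it. TPM gives no depth, so the precision of low genes such as Acmsd is unknown, and 4 libraries a group limit all calls.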
